A study of Homo sapiens with 25 samples.

Results

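The miR-29 family is made by 4 human hairpins, miR-29a, miR-29b-1, miR-29b-2 and miR-29c, which were followed through 9 small RNA sequencing libraries labelled A2780, a long-established line from a human ovarian carcinoma. Its rows were found by name: 3 of the 1033 human rows of the mature miRNA table (miR-29a, miR-29b and miR-29c, without a star) and 4 of the 557 human rows of the precursor table (hsa-mir-29a, hsa-mir-29b-1, hsa-mir-29b-2 and hsa-mir-29c). The 4 starred rows of the same hairpins, which hold their lesser arms, are described with them. The rule goes by these names and uses no measured value. The series asks about miR-450a in ovarian cancer, and the comparisons here ask how the miR-29 family differs between cells given either of a pair of miRNA vectors and cells given an empty one.

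There were 3 libraries of cells with a lentivirus overexpressing pri-miR-450a (called 450a libraries), 3 with a lentivirus overexpressing pri-miR-450b (450b libraries) and 3 with the empty pLVX lentivirus (pLVX libraries). By their labels all 3 groups share the line, a lentiviral vector, RPMI medium with 10% serum and TRIzol extraction, and their small RNA was read for 50 cycles. Figures call the groups miR-450a vector, miR-450b vector and empty vector. Per the labels, each group has 3 biological replicates. Whether a group is a clone or a pool, and whether its libraries come from separate transductions or cultures, is not given in the sources used here. P-values therefore measure only the spread between these libraries, which may be technical. Since each vector stands for a whole group, the vector and anything else that separates the groups cannot be told apart.

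All miR-29 forms share the same seed, the bases near the 5′ end that pair with target messages, and so they are expected to bind overlapping sets of targets. The family is known for repressing collagens and other extracellular matrix genes, the DNA methyltransferases DNMT3A and DNMT3B, and the survival factor MCL1. Its genes are known to be repressed by MYC, by TGF-beta signalling and by NF-kB, and low miR-29 has been described in several cancers and in fibrosis. The hairpins are transcribed from a pair of loci on different chromosomes, each carrying a copy of miR-29b beside either miR-29a or miR-29c.

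The 3 main arms, as RefSeq gives them, are shown because they share a seed and differ in few bases outside it. The capitals mark the seed, bases 2 to 8.
hsa-miR-29a-3p: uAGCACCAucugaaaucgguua
hsa-miR-29b-3p: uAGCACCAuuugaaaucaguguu
hsa-miR-29c-3p: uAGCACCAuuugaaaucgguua
With positions counted from 1 at the 5′ end and miR-29a as the sequence compared against, miR-29c differs by C10U alone, so 21 of 22 bases are identical. miR-29b differs by C10U, G18A, U21G and A22U, which leaves 18 of 22 bases identical. A single base therefore separates miR-29a from miR-29c, and the sources used here do not say how reads close to both were assigned. The seed AGCACCA stood in 4 of the 2545 human mature entries of the RefSeq table (0.157%), and these were the miR-29a, miR-29b and miR-29c entries alone, miR-29b being listed once for each of its hairpins.

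The lesser arms, from the 5′ side of each hairpin, differ in sequence between the hairpins and are shown because they are the rows that tell the miR-29b copies apart. Their bases 2 to 8 are in capitals.
hsa-miR-29a-5p: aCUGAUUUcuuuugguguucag
hsa-miR-29b-1-5p: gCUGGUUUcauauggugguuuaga
hsa-miR-29b-2-5p: cUGGUUUCacaugguggcuuag
hsa-miR-29c-5p: uGACCGAUuucuccugguguuc
The tables name them miR-29a*, miR-29b-1*, miR-29b-2* and miR-29c*. None of these arms has the seed of the main arms.

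The miR-29b hairpins are printed whole, with the shared mature arm in capitals.
MIR29B1 hairpin: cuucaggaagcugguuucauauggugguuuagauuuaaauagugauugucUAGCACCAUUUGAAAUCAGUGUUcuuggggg
MIR29B2 hairpin: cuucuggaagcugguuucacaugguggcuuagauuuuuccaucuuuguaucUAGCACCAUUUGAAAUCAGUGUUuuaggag
A read of the capital letters fits both hairpins equally, so a mature miR-29b read cannot be given to a locus. In RefSeq's miRNA table for GRCh38.p14, MIR29B1 lies at chr7:130877459-130877539 and MIR29A at chr7:130876747-130876810, both on the minus strand with 648 bases between them. MIR29B2 lies at chr1:207802443-207802523 and MIR29C at chr1:207801852-207801939, also on the minus strand, with 503 bases between them. The chromosome 1 pair lies within the span of MIR29B2CHG, a long non-coding host gene, and the chromosome 7 pair lies within no other gene of that assembly's gene table, next to LINC-PINT. The tables of miRNA levels name no genome build, and these positions belong to the RefSeq sequences.

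Levels are given as reads per 1000000 miRNA reads (RPM), computed from the deposited share of each row in all miRNA reads of its library. The main and lesser arms are 22 to 24 bases long, so these levels were not divided by length. A level is a share of reads and not a number of molecules per cell. In bulk RNA, fewer cells that make a miRNA and less of it in each cell cannot be told apart. The depth behind each value is unknown, as the tables hold no read totals, and no counting interval or detection limit was computed.

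The vectors' own miRNAs matched the labels, with miR-450a averaging 13262 RPM in 450a libraries against 406 in 450b libraries and 389 in pLVX libraries. miR-450b averaged 241 RPM in 450a libraries, 980.4 in 450b libraries and 91.7 in pLVX libraries. The 450a libraries stood apart in many other miRNAs. Mesenchymal miRNAs (8 rows of miR-199a, miR-199b, miR-214, miR-143 and miR-145) summed to 417 to 572 RPM there, against 205687 to 251394 in 450b libraries and 179572 to 258338 in pLVX libraries. Of these rows, miR-143 averaged 31.0 RPM in 450a libraries, 698 in 450b libraries and 3197 in pLVX libraries, and miR-145 4.98, 41.9 and 480. Both were called lower in 450b than in pLVX libraries (limma adjusted p = 2.6e-04 and 1.35e-04), and the other 6 rows were not called there. Epithelial miRNAs (5 rows of the miR-200 family) summed to 276 to 368 RPM in 450a libraries, 87.9 to 152 in 450b libraries and 67.3 to 89.2 in pLVX libraries. Most of that sum was miR-200c, which averaged 286 RPM in 450a libraries, 122 in 450b libraries and 62.0 in pLVX libraries. miR-141 averaged 20.0 RPM in 450a libraries against 11.2 in pLVX libraries and was not called there. The rows of miR-200a, miR-200b and miR-429 were too low to be tested. The miRNAs of HOX clusters (4 rows) summed to 54365 to 69460 RPM in 450a libraries, 40687 to 62541 in 450b libraries and 28441 to 51682 in pLVX libraries. In that list miR-10b averaged 15830.2 RPM in 450a libraries against 135 in pLVX libraries, miR-196b 8787 against 39.8, miR-196a 3130 against 7131 and miR-10a 36631 against 34019, of which the last was not called. Rows of SV40 miR-S1 (2 rows), a viral miRNA, summed to 48.6 to 74.1 RPM in 450a libraries, 0 to 0.787 in 450b libraries and 0 to 0.267 in pLVX libraries. The sum of blood markers (5 rows) and the endothelial miR-126 overlapped between all groups. Among the blood rows, miR-144 was too low to be tested and did not overlap with pLVX libraries. It stood at 0.263 to 1.33 RPM in 450a libraries, 0 to 1.86 in 450b libraries and 2.22 to 4.41 in pLVX libraries. The blood sums were 111 to 293 RPM in 450a libraries, 131 to 312 in 450b libraries and 124 to 353 in pLVX libraries, and miR-126 stood at 356 to 1565 in 450a libraries, 430 to 886 in 450b libraries and 660 to 1525 in pLVX libraries. No row of these lists was at 0 in all 3 libraries of a group. Each miR-29 difference between groups given here stands beside these differences, and their part in it was not tested. From these tables alone, a difference that goes with the miR-450a vector and one between cell lines cannot be told apart.

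miR-29a was the most abundant form in every library, and its level set the 450a libraries apart. It stood at 3396, 3874 and 2922 RPM in 450a libraries, at 23464, 24946 and 26278 RPM in 450b libraries and at 31781, 29751 and 26448 RPM in pLVX libraries. The 450a libraries all lay far below the other 6, and the highest 450b library lay just below the lowest pLVX library. Among human mature rows it ranked 46 to 61 in 450a libraries, 9 to 10 in 450b libraries and 8 to 10 in pLVX libraries. Its mean of 3397 ± 476 RPM in 450a libraries was 8.63-fold lower than the 29327 ± 2692 RPM in pLVX libraries (SD, n = 3 each).

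miR-29b, the form made from both loci, varied most among pLVX libraries. It stood at 195, 531 and 172 RPM in 450a libraries, at 365, 655 and 714 RPM in 450b libraries and at 5583, 431 and 1446 RPM in pLVX libraries. The groups overlapped, since 450a replicate 2 lay above pLVX replicate 2. The highest pLVX library was 13.0-fold above the lowest; the same ratio was 2.01 for miR-29c in those libraries and smaller still for miR-29a. Among 450a libraries miR-29c had the wider range, from 938 to 3564 RPM. Means were 299 ± 201 RPM in 450a libraries, 578 ± 187 in 450b libraries and 2486 ± 2729 in pLVX libraries (SD, n = 3 each).

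miR-29c, unlike miR-29a, was highest in 450a libraries. It stood at 938, 3564 and 1058 RPM in 450a libraries, at 168, 265 and 217 RPM in 450b libraries and at 801, 513 and 398 RPM in pLVX libraries. The 3 groups did not overlap, with the 450a libraries highest and the 450b libraries lowest, and 450a replicate 2 was above every other library. The mean of 1853 ± 1483 RPM in 450a libraries was 3.25-fold that of pLVX libraries, 571 ± 208 RPM, and 8.55-fold that of 450b libraries, 217 ± 48.7 RPM (SD, n = 3 each).

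**Figure D1:**
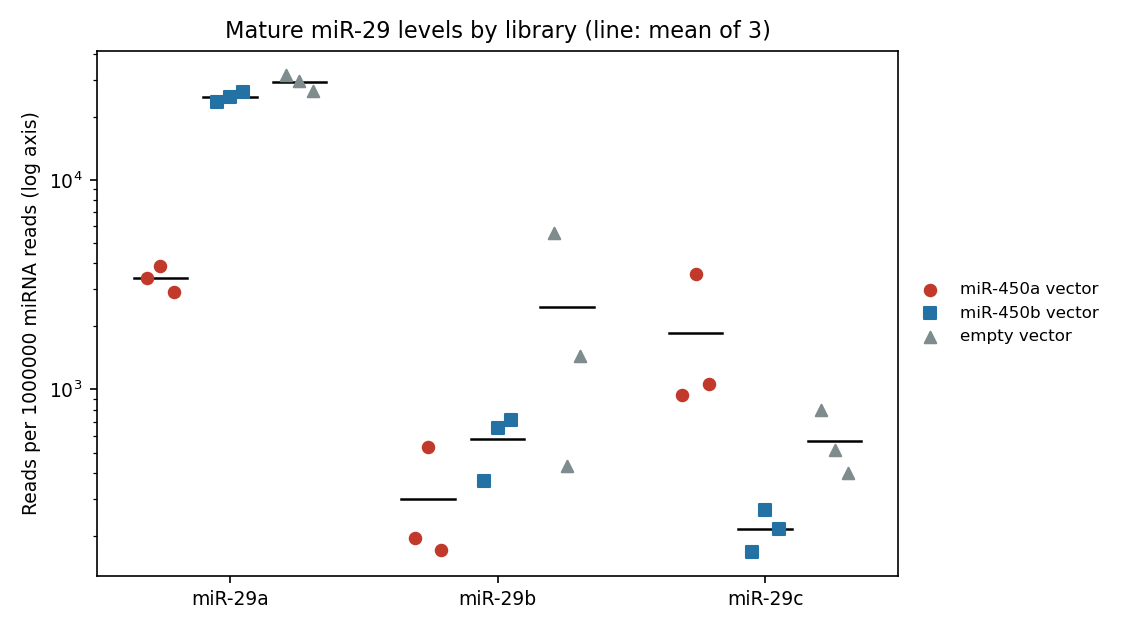
Levels of miR-29a, miR-29b and miR-29c in RPM on a log axis, with the 9 libraries as points and bars at the arithmetic mean of each group (n = 3), for the 450a, 450b and pLVX libraries from left to right. miR-29a lies between 2922 and 3874 RPM in the 450a libraries and between 23464 and 31781 in the others, whereas miR-29c is highest in the 450a libraries and miR-29b overlaps between the groups.

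The order of the 3 forms differed between the groups. In 450a libraries miR-29a came first, miR-29c next and miR-29b last. There the ranges of miR-29a and miR-29c overlapped, although miR-29a was above miR-29c within each library, and the lowest miR-29c value lay above the highest miR-29b value. In 450b libraries the order was miR-29a, miR-29b and miR-29c, with no overlap between neighbours. In pLVX libraries miR-29a came first, and miR-29b and miR-29c overlapped and could not be ordered, miR-29c being above miR-29b in replicate 2 and below it in the other two.

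The unstarred forms together held 0.555 ± 0.210% of miRNA reads in 450a libraries, 2.57 ± 0.161% in 450b libraries and 3.24 ± 0.515% in pLVX libraries (SD, n = 3 each). The family's summed share followed miR-29a, its main component. miR-29a made up 64.7 ± 14.1% of family reads in 450a libraries, 96.9 ± 0.737% in 450b libraries and 91.2 ± 7.10% in pLVX libraries. miR-29c made up 30.3 ± 12.7% in 450a libraries, 0.841 ± 0.167% in 450b libraries and 1.73 ± 0.350% in pLVX libraries. miR-29b made up 5.03 ± 1.42% in 450a libraries, 2.23 ± 0.613% in 450b libraries and 7.05 ± 6.82% in pLVX libraries (SD, n = 3 each), and those of the pLVX group overlapped both others. miR-29c thus stood close to a level with miR-29a in 450a replicate 2, where it held 44.7% of family reads against 48.6% for miR-29a.

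For 450a against pLVX libraries, miR-29a and the starred arms of chromosome 7 were lower, miR-29c and the starred arms of chromosome 1 were higher, and miR-29b, made from both loci, was lower. All 7 arms passed the threshold, 3 higher and 4 lower, in a limma fit of log2(RPM + 10) over 406 mature rows with Benjamini-Hochberg adjustment. In the same comparison 55.4% of all rows passed, 36.9% higher and 18.5% lower, so a call alone says little of a member. Arms of a hairpin and hairpins of a locus are not independent, so these are 7 rows of 2 loci. Among the 3 higher arms is miR-29b-2*, which passed the filter on low rows (a 9-library mean of 10 RPM or more) only through its high level in 450a libraries and so had to differ. The log2 change was -3.11 ± 0.23 for miR-29a (SE, limma adjusted p = 4.34e-07), -2.49 ± 0.77 for miR-29b (adjusted p = 0.0183) and 1.46 ± 0.49 for miR-29c (adjusted p = 0.0246). The changes of miR-29a and miR-29b lay below the 10th percentile of all rows (-2.19), and that of miR-29c lay inside the 90th percentile (2.20). The median of all rows was 0.44 and that of the 7 arms was -2.49. Groups were apart for 6 of the 7 arms, miR-29b-2* among them and all but miR-29b, against 57.9% of all rows.

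The calls differed in how they held. The change of miR-29a stayed between -3.56 and -3.01 with adjusted p from 1.32e-07 to 9.23e-06 under 19 alternatives. The miR-29c call was lost under median-of-ratios scaling, where its change was 1.02 (adjusted p = 0.0988) and the median of all rows was 0.05, and without 450a replicate 2, where its change was 0.85 (adjusted p = 0.0623). It was lost too without pLVX replicate 2 (1.42, adjusted p = 0.0617) or pLVX replicate 3 (1.24, adjusted p = 0.0861). The miR-29b call was lost without pLVX replicate 1, where its change was -1.56 (adjusted p = 0.053), without 450a replicate 1 (-2.29, adjusted p = 0.0644) and without 450a replicate 3 (-2.20, adjusted p = 0.0694). Its adjusted p ran from 0.00118 to 0.121 over the alternatives.

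The starred arms are the rows that can be given to 1 hairpin each, and they split by locus. On chromosome 7, miR-29a* stood at 24.7, 50.4 and 10.6 RPM in 450a libraries, at 149, 385 and 269 RPM in 450b libraries and at 505, 215 and 254 RPM in pLVX libraries. Its neighbour miR-29b-1* stood at 8.62, 13.5 and 2.56 RPM in 450a libraries, at 101, 193 and 86.1 RPM in 450b libraries and at 156, 169 and 123 RPM in pLVX libraries. For both, the 450a libraries lay below all others, and the 450b and pLVX libraries overlapped. Against pLVX libraries the log2 change in 450a libraries was -3.15 ± 0.48 for miR-29a* (SE, limma adjusted p = 1.69e-04) and -3.16 ± 0.33 for miR-29b-1* (adjusted p = 9.29e-06), near that of miR-29a. On a plain RPM scale the mean of miR-29b-1* was 18.2-fold lower in 450a libraries, where its mean of 8.23 RPM was itself under the 10 RPM added before taking logs.

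On chromosome 1, miR-29b-2* stood at 52.8, 59.1 and 46.4 RPM in 450a libraries, at 6.08, 8.77 and 9.90 RPM in 450b libraries and at 8.60, 11.5 and 6.53 RPM in pLVX libraries. Its neighbour miR-29c* stood at 72.0, 131 and 53.9 RPM in 450a libraries, at 9.09, 14.0 and 8.51 RPM in 450b libraries and at 38.2, 6.25 and 23.1 RPM in pLVX libraries. Here the 450a libraries lay above all others, and the 450b and pLVX libraries again overlapped. The log2 change against pLVX libraries was 1.61 ± 0.39 for miR-29c* (SE, limma adjusted p = 0.00473), a call that held under median-of-ratios scaling (1.24, adjusted p = 0.0186). For miR-29b-2* it was 1.74 ± 0.18, given without a p from the filtered fit because that filter had selected it. In a fit with no filter, which tests each row whatever its level, the adjusted p of miR-29b-2* was 1.3e-04. That fit estimates the spread with all 1410 rows, most of them below the filter, and its SE for miR-29b-2* was smaller, 0.13 against 0.18.

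**Figure D2:**
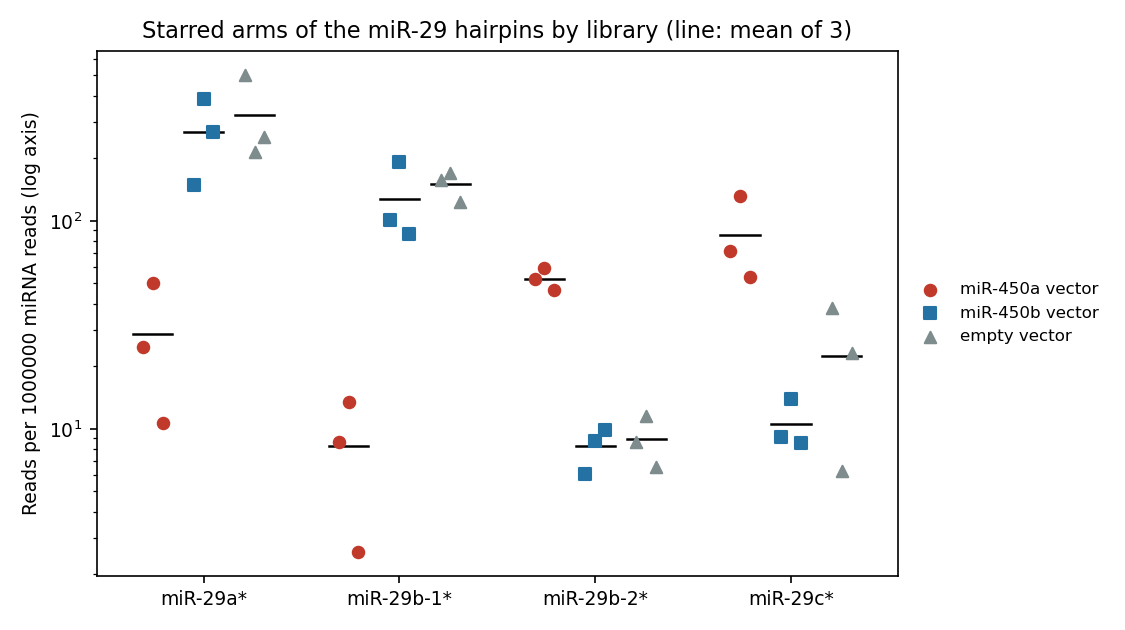
Levels of the 4 starred arms in RPM on a log axis, with the 9 libraries as points and bars at the arithmetic mean of each group (n = 3), the chromosome 7 arms miR-29a* and miR-29b-1* first and the chromosome 1 arms miR-29b-2* and miR-29c* after them. In the 450a libraries miR-29b-1* lies between 2.56 and 13.5 RPM and miR-29b-2* between 46.4 and 59.1, whereas in the pLVX libraries they lie between 123 and 169 and between 6.53 and 11.5.

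Which copy supplied the miR-29b starred reads was therefore reversed in the 450a libraries. miR-29b-1* held 14.0, 18.6 and 5.23% of the reads of both miR-29b starred arms in 450a libraries, 94.3, 95.6 and 89.7% in 450b libraries and 94.8, 93.6 and 95.0% in pLVX libraries. The 450b and pLVX libraries all lay at 89.7% or above and the 450a libraries at 18.6% or below. Taking all 4 starred arms, those of chromosome 7 held 19.3 ± 6.92% in 450a libraries, 95.2 ± 0.965% in 450b libraries and 93.9 ± 1.49% in pLVX libraries (SD, n = 3 each).

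Log2 ratios within a library, taken of RPM + 10, gave the same split. They depend on the library's total only through the added 10 RPM, which weighs most on the low starred arms. The log2 ratio of miR-29a to miR-29c was 1.84, 0.12 and 1.46 in 450a libraries, 7.04, 6.50 and 6.86 in 450b libraries and 5.29, 5.83 and 6.02 in pLVX libraries. The 3 groups were apart, 450a lowest and 450b highest. An exact permutation test over the 3 groups gave p = 0.00357, the smallest that 9 libraries in 3 groups allow (0.0143 adjusted over 4 ratios). The mean difference was -4.57 between 450a and pLVX libraries, -5.66 between 450a and 450b libraries and 1.09 between 450b and pLVX libraries (log2). Each of these differences gave an exact two-sided permutation p = 0.1, the smallest that 3 against 3 allows (0.15 adjusted over 12 tests).

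The log2 ratio of miR-29b-1* to miR-29b-2* was -1.75, -1.56 and -2.17 in 450a libraries, 2.79, 3.43 and 2.27 in 450b libraries and 3.16, 3.06 and 3.01 in pLVX libraries. The sign was negative in each 450a library and positive in the other 6. The exact permutation p over the 3 groups was 0.025 (0.0429 adjusted over 4 ratios). The difference from pLVX libraries was -4.90 in 450a libraries (exact permutation p = 0.1) and -0.24 in 450b libraries (exact permutation p = 0.7), and that between the 450a and 450b groups was -4.66 (exact permutation p = 0.1). The size depends on the 10 RPM added to low values, and the difference of 450a from pLVX libraries was -6.70 with 1 RPM added and -1.69 with 100 RPM added.

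The ratio of miR-29b to miR-29a crosses the loci only in part, as miR-29b comes from both. Its log2 value was -3.64 ± 0.69 in 450a libraries, -5.46 ± 0.44 in 450b libraries and -4.26 ± 1.79 in pLVX libraries (SD, n = 3 each). The exact permutation p over the 3 groups was 0.207, so no difference was called. The 450a and 450b groups were apart, by 1.82 (exact permutation p = 0.1), while both overlapped the pLVX libraries.

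**Figure D3:**
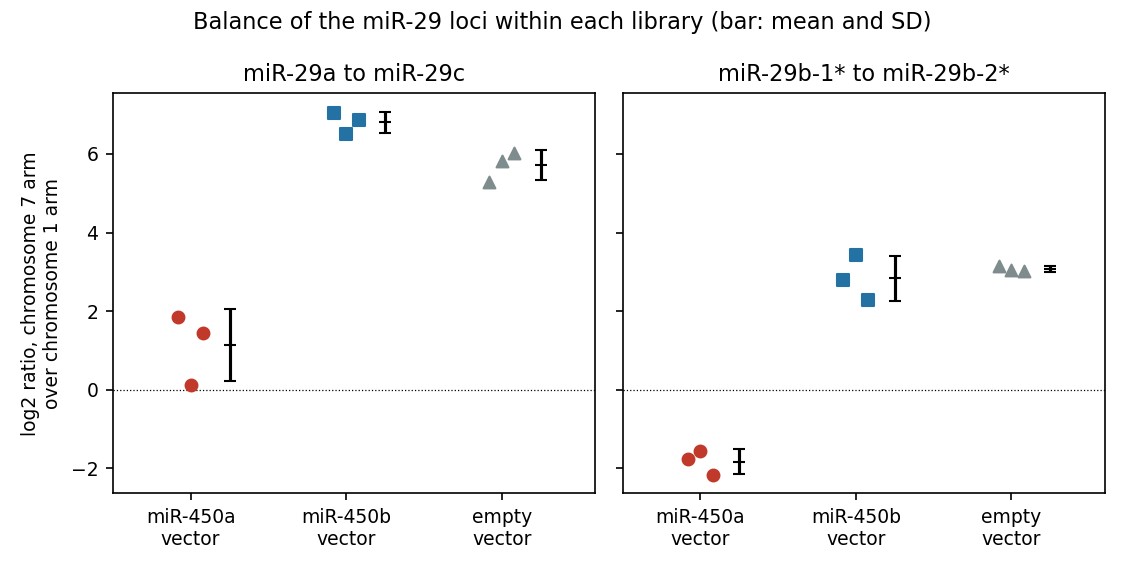
Log2 ratios within each library between the loci (miR-29a to miR-29c and miR-29b-1* to miR-29b-2*), with the 9 libraries as points and bars at the group mean with SD (n = 3). The ratio of miR-29b-1* to miR-29b-2* is below 0 in each of the 450a libraries and above 0 in the other 6, and the ratio of miR-29a to miR-29c lies between 0.12 and 1.84 in the 450a libraries and between 5.29 and 7.04 in the others.

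For 450b against pLVX libraries no arm of the family was called, 0 of 7 in the limma fit, where 14.5% of all rows passed, 4.43% higher and 10.1% lower. At an unadjusted p under 0.05 there was 1, miR-29c, and the groups were apart for 2 of 7 arms, miR-29a and miR-29c, against 31.8% of all rows. The log2 change was -0.23 ± 0.23 for miR-29a (SE, limma adjusted p = 0.524), -1.44 ± 0.77 for miR-29b (adjusted p = 0.26) and -1.32 ± 0.49 for miR-29c (adjusted p = 0.108). The changes of miR-29b and miR-29c lay below the 10th percentile of all rows (-1.25). The starred arms had log2 changes between -0.54 for miR-29c* and -0.05 for miR-29b-2*, with limma adjusted p from 0.394 to 0.901.

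The miR-29c value is the one nearest to a call in this comparison. Fitted on the libraries of these groups alone, its change of -1.32 passed (adjusted p = 0.0365), and it passed too in the fit of all groups without 450a replicate 2 (adjusted p = 0.0176). miR-29b passed without pLVX replicate 2, with a change of -2.34 (adjusted p = 0.0348), and its change was -0.50 without pLVX replicate 1 (adjusted p = 0.756). The miR-29b result in this comparison therefore turned on single pLVX libraries.

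For 450a against 450b libraries, 6 of 7 arms were called, 3 higher (miR-29b-2* again among them) and 3 lower, where 60.3% of all rows passed, 41.9% higher and 18.5% lower. Groups were apart for the same 6, against 69% of all rows. The log2 change was -2.88 ± 0.23 for miR-29a (SE, limma adjusted p = 7.12e-07) and 2.78 ± 0.49 for miR-29c (adjusted p = 5.33e-04). That for miR-29b was -1.06 ± 0.77 (adjusted p = 0.251), which was not called. Among starred arms the change was -2.89 ± 0.48 for miR-29a* (adjusted p = 3.42e-04) and -2.88 ± 0.33 for miR-29b-1* (adjusted p = 2.19e-05). The chromosome 1 arms changed by 2.15 ± 0.39 for miR-29c* (adjusted p = 7.63e-04) and 1.78 ± 0.18 for miR-29b-2*, again given without a p from the filtered fit (adjusted p = 1.07e-04 with no filter). Each group's 3 libraries enter a pair of these comparisons, so the comparisons are not independent.

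**Figure D4:**
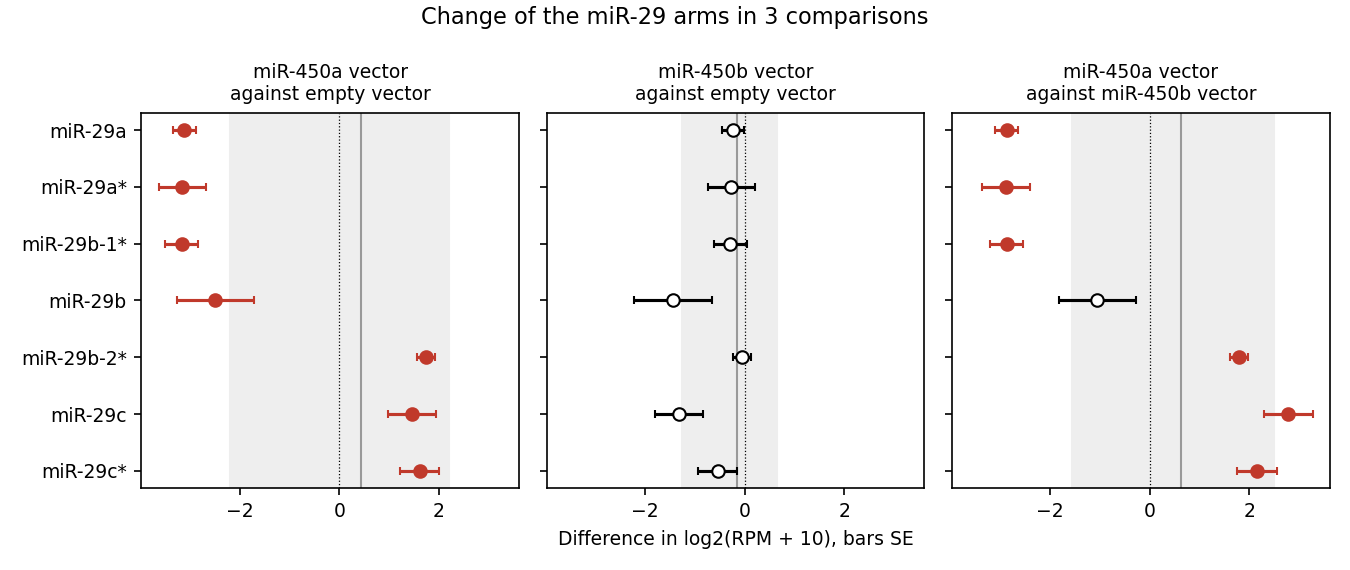
Log2 changes of the 7 arms (limma, log2(RPM + 10) scale, with standard errors) in the 3 comparisons, filled where the adjusted p was under 0.05, with the median of all 406 rows as a grey line and their 10th to 90th percentiles as a grey band. For 450a against pLVX libraries the chromosome 7 arms miR-29a, miR-29a* and miR-29b-1* lie between -3.16 and -3.11, below the band, and the chromosome 1 arms lie between 1.46 and 1.74, inside it, whereas no arm is filled for 450b against pLVX libraries.

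The precursor rows are sums of the mature rows and hold no separate measurement. hsa-mir-29a and hsa-mir-29c each equalled the sum of their arms, and hsa-mir-29b-1 and hsa-mir-29b-2 together equalled mature miR-29b plus both starred arms, with a gap of 0 RPM to 3 decimals. Of the mature miR-29b reads, 46.0 to 49.3% were given to the hsa-mir-29b-1 row in the 9 libraries. The difference between the miR-29b precursor rows therefore holds both this split and the starred arms. In pLVX replicate 1 hsa-mir-29b-1 stood at 2854 RPM and hsa-mir-29b-2 at 2894, although miR-29b-1* stood at 156 and miR-29b-2* at 8.60. The precursor log2 ratio of miR-29b-1 to miR-29b-2 was -0.44 ± 0.16 in 450a libraries, 0.39 ± 0.19 in 450b libraries and 0.21 ± 0.39 in pLVX libraries (SD, n = 3 each). The exact permutation p over the 3 groups was 0.0321 (0.0429 adjusted over 4 ratios). It was 0.05 with 100 RPM added, and between 0.075 and 0.0821 without any 1 of 4 libraries (450a replicates 1 and 3, 450b replicates 1 and 2).

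In the limma fit of 284 precursor rows, all 4 family precursors were called for 450a against pLVX libraries, where 62.7% of all rows passed, 43.3% higher and 19.4% lower. Groups were apart for 3 of the 4, all but hsa-mir-29b-2, against 64.1% of all rows. Their log2 changes were -3.12 for hsa-mir-29a (adjusted p = 1.37e-07), -2.71 for hsa-mir-29b-1 (adjusted p = 0.00272), -2.06 for hsa-mir-29b-2 (adjusted p = 0.0242) and 1.48 for hsa-mir-29c (adjusted p = 0.0159). The hsa-mir-29b-2 row was thus lower while its own starred arm was higher, and that row also holds its part of the mature miR-29b reads. Its call was lost with no filter (adjusted p = 0.171), with the replicate number as a block (adjusted p = 0.0572) and without 450a replicate 1 (-1.91, adjusted p = 0.0749), 450a replicate 3 (-1.82, adjusted p = 0.0785), pLVX replicate 1 (-1.15, adjusted p = 0.0904) or pLVX replicate 3 (-2.08, adjusted p = 0.0517). The hsa-mir-29b-1 call was lost with no filter (adjusted p = 0.0503), and the hsa-mir-29c call without pLVX replicate 3 (1.27, adjusted p = 0.0579). None of the 4 was called for 450b against pLVX libraries, where 17.3% of rows passed, 5.63% higher and 11.6% lower. Groups were apart there for hsa-mir-29a and hsa-mir-29c, against 31% of rows. Without pLVX replicate 2, hsa-mir-29b-1 (-1.91, adjusted p = 0.0445) and hsa-mir-29b-2 (-2.31, adjusted p = 0.0148) were called, and without 450a replicate 2 hsa-mir-29c was (-1.31, adjusted p = 0.0172). For 450a against 450b libraries 2 of the 4 were called, hsa-mir-29a at -2.88 (adjusted p = 2.63e-07) and hsa-mir-29c at 2.79 (adjusted p = 2.42e-04). In that comparison 66.9% of rows passed, 49.3% higher and 17.6% lower, and groups were apart for 3 of the 4, hsa-mir-29b-1 being the other, against 73.9% of rows. hsa-mir-29b-1, at -1.46 (adjusted p = 0.0596), was called under median-of-ratios scaling (-2.21, adjusted p = 0.0134) and without 450a replicate 2 (-1.93, adjusted p = 0.0359), pLVX replicate 1 (adjusted p = 0.0141) or pLVX replicate 2 (adjusted p = 0.031).

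Starred arms were a small part of the reads of miR-29a and miR-29c in every group. The starred share of the miR-29a hairpin averaged 0.790% in 450a libraries, 1.05% in 450b libraries and 1.08% in pLVX libraries. For the miR-29c hairpin it averaged 5.17% in 450a libraries, 4.64% in 450b libraries and 3.75% in pLVX libraries. For both hairpins the shares of the 3 groups overlapped. For miR-29b both starred arms together held 19.4 ± 6.45% in 450a libraries, 19.4 ± 6.54% in 450b libraries and 13.6 ± 14.1% in pLVX libraries (SD, n = 3 each).

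Within the pLVX group the main and starred arms of miR-29b did not vary together. The starred share of miR-29b reads was 2.87, 29.6 and 8.23% in pLVX replicates 1, 2 and 3. Over these libraries mature miR-29b ranged 13.0-fold, whereas miR-29b-1*, which held 93.6% or more of the starred reads there, ranged 1.37-fold. The high value of pLVX replicate 1 was thus seen in mature miR-29b and not in its main starred arm.

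Replicate 1 of the pLVX group and 450a replicate 2 deviated from their groups in like ways, with a correlation of 0.645 between their deviations over the 406 rows tested, given as a description. That of 450a replicate 1 with 450b replicate 1 was nearly as high, at 0.641, and no fit left out that pair. In pLVX replicate 1 and 450a replicate 2, miR-29a, miR-29b and miR-29c were the highest of their group. The deviation of miR-29b from its group mean was 1.87 in pLVX replicate 1, -1.80 in pLVX replicate 2 and 0.99 in 450a replicate 2 (log2). That of miR-29c was 1.22 in 450a replicate 2 and 0.54 in pLVX replicate 1. Other miRNAs, chosen after their values were seen, moved alike, with miR-15a deviating by 1.16 in 450a replicate 2 and 1.02 in pLVX replicate 1. Without both libraries, an alternative chosen after seeing the data, the change for 450a against pLVX libraries was -3.15 for miR-29a (adjusted p = 3.99e-06), -2.05 for miR-29b (adjusted p = 0.0132) and 1.12 for miR-29c (adjusted p = 0.012).

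The members' patterns over the 9 libraries split the same way, as Pearson r of log2(RPM + 10), given without a p because the libraries fall into 3 groups and share their totals. miR-29a had r = 0.98 with miR-29b-1* and -0.72 with miR-29c. miR-29c had r = 0.91 with miR-29c* and 0.83 with miR-29b-2*. Mature miR-29b went with the chromosome 7 arms, though less closely than they did with each other. Its r was 0.65 with miR-29a, 0.78 with miR-29a* and 0.64 with miR-29b-1*. With the chromosome 1 arms it was -0.09 for miR-29c, -0.12 for miR-29c* and -0.57 for miR-29b-2*. Between the starred arms of the miR-29b copies r was -0.93.

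Among 279 other human mature rows, those most like miR-29a were miR-214-3p, miR-137 and miR-199a-5p, each with r of 0.995. These differ from miR-29a in size, as miR-214-3p had a log2 change of -9.06 for 450a against pLVX libraries, miR-137 of -7.87 and miR-199a-5p of -8.88. The rows most like miR-29b were miR-570-3p (r = 0.927), miR-451-DICER1 (r = 0.905) and miR-18b (r = 0.874), all highest in pLVX replicate 1. The rows most like miR-29c were miR-17 (r = 0.957), miR-671 (r = 0.936) and miR-374b (r = 0.929), all highest in 450a replicate 2. miR-17, a member of the miR-17-92 cluster, stood at 43518, 87490 and 54785 RPM in 450a libraries and at 52756, 36194 and 30896 RPM in pLVX libraries, and those groups overlapped.

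Other miRNAs that MYC is known to repress, several of them of the let-7 family and so not independent, did not share 1 direction. The table held 24 and the fit 23 of them, and for 450a against pLVX libraries 10 were higher, 4 lower and 9 not called, beside 36.9% higher and 18.5% lower over all rows, with a median log2 change of 0.44, equal to that of all rows. For 450b against pLVX libraries 9 were higher, 2 lower and 12 not called, beside 4.43% higher and 10.1% lower over all rows (median -0.08, against -0.16 over all rows). For 450a against 450b libraries 8 were higher, 5 lower and 10 not called, beside 41.9% higher and 18.5% lower over all rows (median 0.67, against 0.62 over all rows). The 3 most abundant were miR-16, let-7a and miR-26a. let-7a, which represses RAS genes, averaged 19950 RPM in 450a libraries, 32386 in 450b libraries and 4818 in pLVX libraries, with log2 changes against pLVX libraries of 2.07 (adjusted p = 2.13e-04) and 2.77 (adjusted p = 1.25e-04). miR-16, which represses BCL2 and cell cycle genes, was not called in any comparison, with log2 changes of -0.31 for 450a against pLVX, -0.47 for 450b against pLVX and 0.17 for 450a against 450b libraries. Unlike miR-29a, let-7a was thus higher with both vectors than in pLVX libraries.

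The miRNAs outside the family that are known to target DNA or histone methyltransferases were 7, all tested. For 450a against pLVX libraries 1 was higher, 3 lower and 3 not called (median -0.34, against 0.44 over all rows, of which 36.9% were higher and 18.5% lower). For 450b against pLVX libraries none was higher, 2 were lower and 5 not called (median 0.07, against -0.16 over all rows, of which 4.43% were higher and 10.1% lower). For 450a against 450b libraries 1 was higher, 3 lower and 3 not called (median -0.45, against 0.62 over all rows, of which 41.9% were higher and 18.5% lower). miR-26a and miR-26b, which target the histone methyltransferase EZH2, had log2 changes of -0.78 (adjusted p = 0.0166) and -1.39 (adjusted p = 4.89e-04) for 450a against pLVX libraries. miR-148b, which targets DNMT3B, had a log2 change of 0.49 there (adjusted p = 0.319).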

How the data were processed

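Small RNA was sequenced in 9 libraries labelled A2780, 3 per vector. The deposited values are fractions of all miRNA reads in a library, with 1 row per mature form or per precursor, per the file headers. TopHat and Cuffdiff stand in the submitters' processing notes without a role. For these tables the aligner, miRNA annotation and build were not given in the sources used here.

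Shares were multiplied by 1000000 (RPM) and taken as log2(RPM + 10), which understates changes of low rows. Rows averaging 10 RPM or more over the libraries were fitted with limma 3.58.1 in R 4.3.3 (intensity trend, all 9 libraries, Benjamini-Hochberg adjustment over 406 mature or 284 precursor rows, threshold 0.05). All 7 family arms and 4 precursors passed that filter, miR-29b-2* only through the miR-450a vector group. Ratios were compared with two-sided exact permutation tests. The code was tested on simulated data, and figures were drawn with Python 3.11.15 and matplotlib 3.10.9.

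The rows named were the members and their arms, the 3 rows most like each unstarred member by Pearson r, the 3 most abundant of each list, and markers. The members, lists and tests were chosen with earlier results of these data known. As alternatives, 1 or 100 RPM was added in place of 10, the filter was dropped or raised to 100 RPM, libraries were scaled by median of ratios or by shares that leave out the miR-199 and miR-214 rows, the trend was dropped, the compared groups were fitted alone, a replicate block was added, and each library was left out. Messenger RNA (12) and PAR-CLIP (4) samples of the series were not used here.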

Additional observations from a re-analysis of the deposited data

How the results depend on the processing

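The miR-29a calls of 450a libraries against both other groups, and those of its starred arm and miR-29b-1*, held under each alternative that gave a value, as did those of miR-29c*. The starred rows miR-29b-1*, miR-29b-2* and miR-29c* have means under 100 RPM and no value under the 100 RPM filter. For 450a against pLVX libraries, the miR-29b call was lost with no filter (-2.49, adjusted p = 0.121), and leaving out single libraries gave -3.39 to -1.56, with the call lost without 450a replicate 1 or 3 or pLVX replicate 1. The miR-29c call was lost with no filter (1.46, adjusted p = 0.119), median-of-ratios scaling (1.02), shares without miR-199a, miR-199b and miR-214 (1.13), and without 450a replicate 2 or pLVX replicate 2 or 3, the values without single libraries running from 0.85 to 1.81. For 450b against pLVX libraries, miR-29c was called with only those groups fitted (-1.32) and without the pair of libraries that deviate together (-1.05), and leaving out single libraries gave -1.54 to -1.05 for miR-29c and -2.34 to -0.50 for miR-29b. Without that pair miR-29b was called between 450a and 450b libraries (-1.55). With no filter hsa-mir-29b-1 (-2.71) and hsa-mir-29b-2 (-2.06) were also not called for 450a against pLVX libraries. The hsa-mir-29c row moved like its main arm, with the call against pLVX libraries lost for 450a libraries with no filter (1.48) and median-of-ratios scaling (0.90), and values from 0.89 to 1.82 without single libraries. For 450b libraries that row was called with only those groups fitted (-1.31) and without the pair (-1.03), and ran from -1.52 to -1.03 without single libraries. The cause was not tested.

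The mature rows called numbered 225, 59 and 245 for 450a against pLVX libraries, 450b against pLVX libraries and 450a against 450b libraries, and 137, 38 and 140 with a mean of at least 100 RPM, where fewer rows were tested. Median-of-ratios scaling moved the share of calls that were higher to 52.0, 40.0 and 48.7%, against 66.7, 30.5 and 69.4% as deposited, and the median of all rows to 0.05, -0.05 and 0.13, against 0.44, -0.16 and 0.62.

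The precursor ratio of miR-29b-1 to miR-29b-2 had an exact p over the groups of 0.05 with 100 RPM added, and 0.0107 to 0.0821 without single libraries, and its difference between 450a and 450b libraries was -0.58 with 100 RPM added. The ratio of miR-29b-1* to miR-29b-2* differed between 450a and pLVX libraries by -6.70 and -1.69 with 1 and 100 RPM added, and between 450a and 450b libraries by -6.48 and -1.54. Its difference between 450b and pLVX libraries ran from -0.54 to 0.0382 without single libraries. The difference in the ratio of miR-29b to miR-29a between 450a and pLVX libraries ran from -0.29 to 1.49. Uncalled changes of 450b against pLVX libraries that turned sign were those of miR-29a* (0.0931 without the pair, -0.569 to 0.0931 without single libraries) and miR-29b-2* (0.0248 with median-of-ratios scaling, -0.139 to 0.0518 without single libraries).

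Same-numbered libraries did not deviate together in every pair, with correlations of their deviations from -0.507 to 0.641, so the replicate numbers were not treated as pairs. With the replicate number as a block 230, 58 and 251 mature rows were called, and miR-29a, miR-29b and miR-29c for 450a against pLVX libraries had adjusted p-values of 9.23e-06, 0.0395 and 0.0256. The call lost under the block was that of the miR-29b-2 precursor for 450a against pLVX libraries. Not every library correlated best with its own number. Depth is unknown, so what low starred rows can show is not known.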
